A study of Homo sapiens with 4 samples.

Results

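The genes described here are the CDC25 phosphatases CDC25A, CDC25B and CDC25C, the WEE family kinases WEE1 and PKMYT1, and the cyclin-dependent kinases CDK1, CDK2, CDK4 and CDK6, which set the pace of the cell cycle and stand downstream of the checkpoint kinase CHK1. They were taken by symbol, 1 array feature for each, and make up 9 of the 17687 genes measured. The cells were NB4-R4, a subclone of NB4 acute promyelocytic leukaemia cells which has lost the maturation response to all-trans retinoic acid (ATRA). Both groups were these ATRA-resistant cells, kept for 96 h either with the vehicle DMSO or with the CHK1 inhibitor MK-8776 at 4 µM, with 2 arrays in each group. They stem from 1 cell line, and its resistance is shared by treated and control cells. Replicates are labelled as biological with no word on how cultures were kept apart, so the p-values cover only the spread among these 4 samples, which may be technical.

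A CDK is active only when bound to a cyclin and when its ATP-binding loop is free of inhibitory phosphate. WEE1 and PKMYT1 (also known as MYT1) put that phosphate on CDK1, WEE1 also on CDK2, and the CDC25 phosphatases take it off. Active CHK1 phosphorylates the CDC25 proteins, which marks CDC25A for destruction and holds the others away from their targets, and so delays entry into mitosis when DNA replication is disturbed. This control acts mostly on proteins, which these arrays did not measure. The transcripts of CDK1 and CDC25C are known to accumulate in the later part of the cell cycle, in cells that divide.

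After MK-8776, the transcripts of CDK1, the kinase that drives mitosis, and of CDC25C, a phosphatase that activates it, fell. CDK1 was 3.01-fold lower and CDC25C 1.99-fold lower. CDC25B and CDK6 had changes of about the same size as CDC25C, -0.97 and -0.98 on the log2 scale, and did not pass the test. CDK2, WEE1 and CDC25A had smaller changes below 0, and CDK4 and PKMYT1 measured 0.03 and 0.135 above DMSO. In all, falls were called for 2 of the 9 genes (22.2%) and rises for 0, while 7 missed the threshold, with 5 of the 9 at an unadjusted p under 0.05 in the limma fit. Of all 17687 genes, 3.69% passed in either direction, 2.02% as falls and 1.66% as rises, and 18.8% had an unadjusted p under 0.05. The median change of the 9 genes was -0.735, against 0.005 over all genes. Changes are log2 differences, MK-8776 minus DMSO, in RMA expression, with the standard error (SE), the 95% confidence interval and the adjusted p of a limma fit over all 17687 genes, and a gene passed at an adjusted p under 0.05. In bulk RNA, fewer cells that carry a transcript and less transcript in each cell cannot be told apart.

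**Figure D1:**
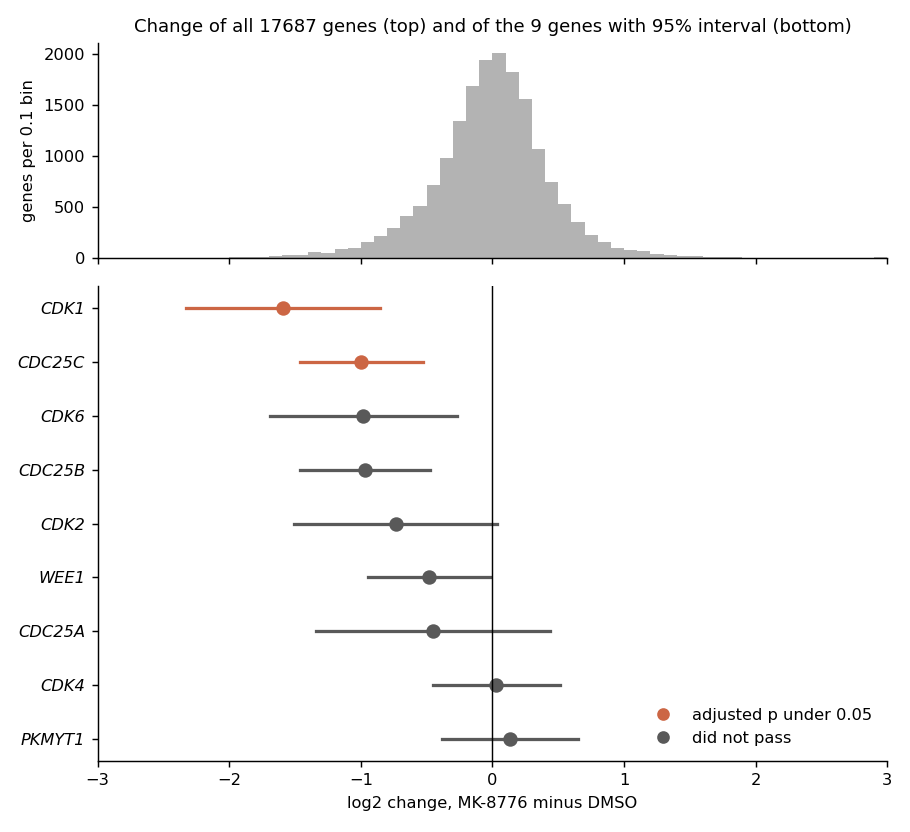
The lower panel plots the log2 change, MK-8776 minus DMSO, of the 9 genes with its 95% confidence interval from limma (2 arrays per group), coloured where the adjusted p was under 0.05. The upper panel is the histogram of the changes of all 17687 genes in bins of 0.1, with changes beyond 3 in either direction drawn in the end bins. CDK1 lies farthest to the left at -1.59, while CDK4 at 0.03 lies in the middle of the histogram.

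The 4 arrays were alike in distribution, with medians between 5.76 and 5.79 and a correlation across genes of 0.993 within either group and 0.981 to 0.989 between groups. Of 8 measured promyelocyte and myeloid markers, all had a mean above the median of all values (5.77). MPO, the myeloperoxidase of promyelocyte granules, measured 16.09 and 16.27 in DMSO and 14.81 and 15.36 in MK-8776. Its change of -1.095 did not pass (adjusted p = 0.0514, limma). In that list 2 genes fell, the granule proteases CTSG (-2.20) and PRTN3 (-2.005), and ANPEP, the surface peptidase CD13, rose by 1.075, a call that a minimum fold of 1.2 ended (adjusted p = 0.0840, limma). The mean log2 level of the list was 10.64 and 10.985 in the DMSO arrays and 10.09 and 10.455 in the MK-8776 arrays. Its members did not move together. LYZ and PTPRC had changes of 0.685 and 0.755, with both MK-8776 arrays above both controls, and did not pass. AZU1 and CEBPE had changes of -1.2 and -0.35 with overlapping groups, and AZU1 measured 5.99 and 8.16 in the DMSO arrays. Among 9 lymphoid markers, 8 erythroid and megakaryocyte markers and 6 eosinophil, basophil and mast cell markers, 1, 1 and 0 fell and 1, 1 and 0 rose. Those of the erythroid and megakaryocyte list were ITGA2B (-1.55, adjusted p = 0.0120) and PPBP (1.82, adjusted p = 0.0235, limma). Of all 17687 genes, 2.02% fell and 1.66% rose. The calls among all these marker lists were lost without any 1 of the 4 arrays. Nearly all calls of the whole table were lost in those settings, so the loss is not particular to these markers. The B cell marker MS4A1 and the T cell markers CD8A and CD3G were dim in all 4 arrays, under the array-wide lower quartile (3.97). The other lymphoid markers were not, CD79A, CD79B and CD3E among them. NKG7 had the highest values of that list, 10.85 and 11.36 in DMSO and 12.28 and 12.38 in MK-8776. It rose by 1.225 (adjusted p = 0.0320), and CD3E fell by 1.38 (adjusted p = 0.0264, limma). Both calls were lost against a minimum fold of 1.2 (0.0759 and 0.0574). Whether these marker shifts have a part in the changes of the 9 genes was not tested. The transcript of CHEK1, which encodes CHK1 itself, had a change of -0.81 (SE 0.22, adjusted p = 0.0883, limma), and as MK-8776 acts on the protein this checks no label.

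The stretches of promoter below are shown because CDK1, CDC25C and CDC25B shared a short element that CDC25A lacked in its window. CDK6, whose change of -0.98 was about that of CDC25B (-0.97), lacked it too in its 2 windows. WEE1, PKMYT1 and CDK2 had no listed window. The stretches were chosen after the changes were seen, and whether the element has a part in those changes was not tested. RefSeq windows (GRCh38.p14) of 300 bases, from 250 bases before to 50 bases after a listed transcription start, were given for 6 of the 9 genes, 14 windows in all, some of which overlap. They were searched on both strands for the cell cycle genes homology region, or CHR (TTTGAA or TTCGAA), known as a landing site of the MuvB complexes that switch late cell cycle genes off and on, for the CCAAT box (CCAAT) bound by the factor NF-Y, and for E2F-type letters (TTCCCGC or TTGGCGC or TTCGCGC or TTGCCGC). Capitals mark the match, each stretch is 30 bases and runs 5′ to 3′ on the strand of the gene, and a CCAAT box read from the other strand appears as ATTGG.
CDC25C, CHR, chr5:138331822-138331851, minus strand: actgggctggcggaaggTTTGAAtggtcaa
CDK1, CHR, chr10:60778448-60778477, plus strand: ccctttagcgcggtgagTTTGAAactgctc
CDC25B, CHR, chr20:3796255-3796284, plus strand: cgcggctgctgttatttTTCGAAtatataa
CDC25C, CCAAT box, chr5:138331872-138331901, minus strand: gcgcgcgcggagATTGGctgacgcagctta
CDK1, CCAAT box, chr10:60778420-60778449, plus strand: acgggctacccgATTGGtgaatccggggcc
CDC25B, CCAAT box, chr20:3796225-3796254, plus strand: acccgctaccccATTGGtggcgtccggcgg
CDC25A, E2F letters, chr3:48188441-48188470, minus strand: tggattccgtTTGGCGCCAActaggaaagg

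In CDC25C the CHR shown began 30 bases before one of the listed starts, in CDK1 13 bases and in CDC25B 38 bases. In each of the 3 genes a CCAAT box lay upstream of it, with 55, 33 and 35 bases from the first base of the box to the first base of the CHR. For each gene the CHR nearest before a listed start was shown, with the next CCAAT box upstream. These spacings follow in part from that choice. CDK1 had other CHR matches, 69 and 161 bases before a listed start and 10 bases after one. The CHR at 69 bases had a CCAAT box close upstream, at 78 bases before the start. CDC25C, CDK1 and CDC25B were the 3 genes with a CHR among the 6 with windows, in 2 of 4 windows for CDC25C, 2 of 2 for CDK1 and 1 of 4 for CDC25B. The 2 windows of CDC25C overlap and hold the same CHR. CDC25A had CCAAT boxes and, 43 bases before its start, E2F letters that overlap on both strands, but no CHR. E2F letters were not particular to it, and stood also in 2 of 2 windows of CDK1, 2 of 4 of CDC25C and 1 of 4 of CDC25B. The 2 windows of CDK1 overlap and hold the same E2F letters, as do the 2 of CDC25C. In CDC25C and CDC25B the E2F letters stood in other windows than the CHR. The windows of CDK4 and CDK6 held none of the 7 letter strings. A CHR stood in 16.4% of all 35116 windows and in at least 1 window of 17.5% of the 14250 measured genes with windows. By the same count 42.3% of those genes had a CCAAT box and 20.8% had E2F letters. A CHR and a CCAAT box stood together in 1 window of 7.3% of those genes. These matches describe letters in the reference sequence, and no binding was measured.

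CDC25C (feature TC0500012166.hg.1, chromosome 5, 138285265 to 138338355, GRCh38) measured 7.16 and 7.26 in the DMSO arrays and 6.19 and 6.24 in the MK-8776 arrays. Both treated arrays lay below both controls, and the arrays of a group differed by 0.1 and 0.05 only. The group means were 7.21 ± 0.071 and 6.215 ± 0.035 (SD, n = 2). The change was -0.995 (SE 0.20, 95% interval -1.46 to -0.53), which passed as a fall (adjusted p = 0.0372, limma). Settings that ended the call included quantile normalization (0.0503) and a minimum fold of 1.2 (0.104). Leaving out any 1 of the 4 arrays ended it too, as it did nearly all calls of the whole table. The change itself kept between -1.045 and -0.945 without each array.

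CDC25B (feature TC2000006559.hg.1, chromosome 20, 3786951 to 3806115), a phosphatase known to act early in mitotic entry at the centrosome, measured 9.45 and 9.14 in DMSO and 8.38 and 8.27 in MK-8776. The groups did not overlap, and the gap of 0.76 between the lower control and the higher treated array was larger than the spread of either group. Its change of -0.97 (SE 0.22, interval -1.47 to -0.47) narrowly missed the threshold (adjusted p = 0.0504, limma). It passed among genes above the median level (0.0283) and with a variance trend, plain (0.0295) or robust (0.0302). The changes of CDC25B and CDC25C were thus alike in size, and their different sides of the threshold show no difference between them.

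CDC25A (feature TC0300011009.hg.1, chromosome 3, 48157146 to 48188417), the phosphatase that also serves CDK2 at the start of DNA replication, measured 5.36 and 6.36 in DMSO and 4.95 and 5.86 in MK-8776. The groups overlapped, and replicate 2 stood above replicate 1 by 1.0 in DMSO and by 0.91 in MK-8776, more than the change of -0.455 (SE 0.39, interval -1.34 to 0.43, adjusted p = 0.605, limma). The change turned to 0.045 without DMSO replicate 2, was 0 without MK-8776 replicate 1, and was -0.955 without DMSO replicate 1. Its mean over the 4 arrays lay just under the median of all values, and a change of up to 1.34 below DMSO lies within the interval.

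WEE1 (feature TC1100006815.hg.1, chromosome 11, 9573670 to 9589985), the nuclear kinase that phosphorylates the tyrosine of the CDK1 loop, measured 10.58 and 10.51 in DMSO and 10.05 and 10.08 in MK-8776. These were among the closest replicates of the 9 genes, with 0.07 and 0.03 between arrays of a group, and the groups did not overlap. The change was -0.48 (SE 0.20, interval -0.94 to -0.018). It had an unadjusted p of 0.0434 and did not pass once adjusted over all genes (0.249, limma). Over the alternatives run, the adjusted p of WEE1 ran from 0.138 to 0.792, and its change without each array ran from -0.515 to -0.445.

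PKMYT1 (feature TC1600011468.hg.1, chromosome 16, 2972808 to 2980446), the membrane-bound relative of WEE1 that phosphorylates the threonine and tyrosine of the CDK1 loop, measured 3.95 and 3.58 in DMSO and 3.80 and 4.00 in MK-8776. The groups overlapped, and 3 of the 4 values were below the array-wide lower quartile of 3.97. The change was 0.135 (SE 0.23, interval -0.38 to 0.65, adjusted p = 0.814, limma), and it turned to -0.05 without DMSO replicate 2. At a level this near the bottom of the array's range the feature says little about PKMYT1, and the values carry no detection call.

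**Figure D2:**
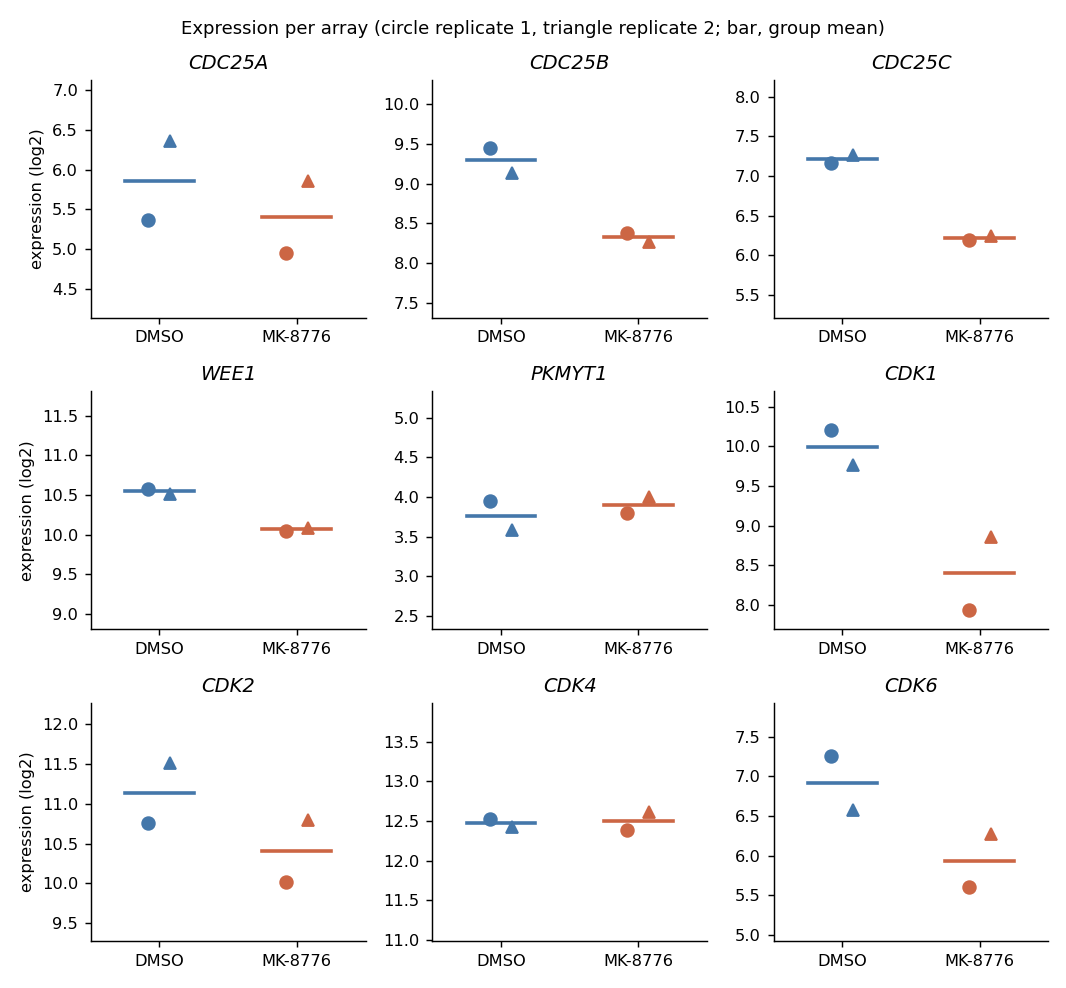
Each panel plots 1 gene, with RMA expression on the log2 scale on an axis that spans 3 units around the mean of the gene, so heights compare arrays and not genes. Blue is DMSO and orange MK-8776, circles are replicate 1 and triangles replicate 2, and bars are means of the 2 arrays. CDC25B, CDC25C, WEE1, CDK1 and CDK6 have both MK-8776 arrays below both DMSO arrays, while in CDC25A and CDK2 the triangles stand above the circles in both groups.

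CDK1 (feature TC1000007748.hg.1, chromosome 10, 60778331 to 60794852) measured 10.21 and 9.77 in DMSO and 7.94 and 8.86 in MK-8776. The groups did not overlap, and the lower control stood 0.91 above the higher treated array, about as far as the treated arrays stood from each other (0.92). The means were 9.99 ± 0.31 and 8.40 ± 0.65 (SD, n = 2). The change of -1.59 (SE 0.32, interval -2.33 to -0.85) passed as a fall (adjusted p = 0.0360, limma), and 0.577% of all genes had a change further below 0. Settings that ended the call included a minimum fold of 1.2 (0.0736). The call was also lost without any 1 of the 4 arrays, as were nearly all calls of the whole table. Dropping MK-8776 replicate 1 gave a change of -1.13, and dropping MK-8776 replicate 2 one of -2.05.

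CDK6 (feature TC0700011785.hg.1, chromosome 7, 92604921 to 92836573), a cyclin D partner with a known role in blood progenitors, measured 7.26 and 6.57 in DMSO and 5.60 and 6.27 in MK-8776. The groups did not overlap, but the gap of 0.30 between them was smaller than the spread of 0.69 and 0.67 within them. Its change of -0.98 (SE 0.31, interval -1.69 to -0.27) did not pass (adjusted p = 0.135, limma). It was -0.635 without DMSO replicate 1 and -1.325 without DMSO replicate 2.

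CDK4 (feature TC1200010977.hg.1, chromosome 12, 57747727 to 57752310), the other cyclin D partner, measured 12.53 and 12.42 in DMSO and 12.39 and 12.62 in MK-8776. The treated arrays enclosed the controls. Its change of 0.03 (SE 0.21, interval -0.45 to 0.51, adjusted p = 0.965, limma) turned to -0.025 without DMSO replicate 2 and to -0.085 without MK-8776 replicate 2. The interval leaves room for a change of 0.51 upward or 0.45 downward.

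CDK2 (feature TC1200007819.hg.1, chromosome 12, 55966830 to 55972789), the partner of cyclins E and A in DNA replication, measured 10.76 and 11.52 in DMSO and 10.01 and 10.80 in MK-8776. The groups overlapped slightly, since the higher treated array stood 0.04 above the lower control. As in CDC25A, replicate 2 stood above replicate 1 in both groups, by 0.76 and 0.79. The change was -0.735 (SE 0.34, interval -1.50 to 0.034, adjusted p = 0.286, limma), and ran from -1.13 to -0.34 when arrays were dropped in turn. Both MK-8776 arrays lay below both DMSO arrays in 5 of the 9 genes (55.6%), against 24.2% of all genes.

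The balance between a CDC25 phosphatase and a WEE kinase, or between CDKs, was also followed within each array, where any shift common to the array cancels. Levels of different features are not comparable, so only the difference between groups is read. The log2 level of CDC25C minus that of WEE1 was -3.42 and -3.25 in DMSO and -3.86 and -3.84 in MK-8776, a difference between groups of -0.515. For CDC25B minus WEE1 it was -1.13 and -1.37 against -1.67 and -1.81, a difference of -0.49. Against WEE1, both phosphatases thus stood lower in both treated arrays than in either control. CDC25A minus WEE1 overlapped between groups, with a difference of 0.025 that turned to -0.51 without DMSO replicate 1. PKMYT1 was too dim for its 3 pairs with the phosphatases to be read.

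Among the CDKs, CDK1 minus CDK4 was -2.32 and -2.65 in DMSO and -4.45 and -3.76 in MK-8776, a difference of -1.62. CDK1 minus CDK2 was -0.55 and -1.75 against -2.07 and -1.94, so the controls differed from each other by more than the group means did (-0.855), and the difference was -0.255 without DMSO replicate 1 and -1.455 without DMSO replicate 2. CDK2 minus CDK4 and CDK1 minus CDK6 had differences of -0.765 and -0.61, and CDK4 minus CDK6 one of 1.01, each without overlap of the groups. Of these, CDK2 minus CDK4 was -1.77 and -0.9 in DMSO against -2.38 and -1.82 in MK-8776. The groups were thus barely apart, and the controls differed from each other by more than the group means did. The difference for that pair ran from -0.33 without DMSO replicate 2 to -1.2 without DMSO replicate 1, and was -0.485 without MK-8776 replicate 1. CDK2 minus CDK6 overlapped, at 0.245. Of the 12 pairs compared, 9 did not overlap between groups, or 7 of the 9 pairs without PKMYT1. Among single genes 48.2% of all 17687 did not overlap in either direction, and the pairs share members, so these differences are given without a test.

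**Figure D3:**
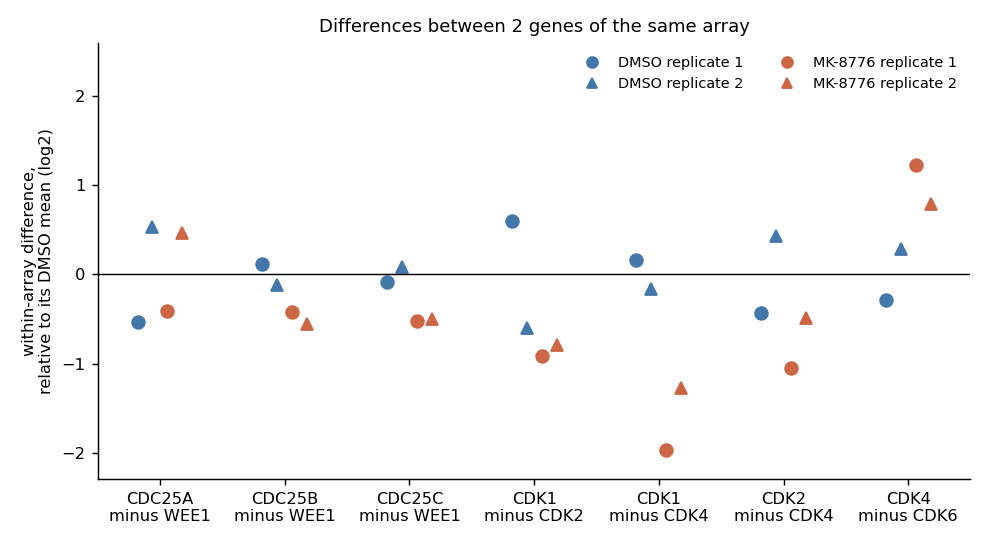
For 7 of the 12 pairs, the log2 level of the first gene minus that of the second in the same array is plotted relative to the mean of the 2 DMSO arrays. Blue is DMSO, orange MK-8776, circles are replicate 1 and triangles replicate 2. CDK1 minus CDK4 shows the widest gap between groups, and CDC25A minus WEE1 follows the replicate number and not the treatment.

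The genes whose 4 array values, after subtraction of each gene's mean, lay nearest to those of CDC25C were DDX59, MRE11 and CCDC112, at Euclidean distances of 0.070, 0.077 and 0.081 on the log2 scale, among 9174 other genes above the median level. MRE11 encodes a nuclease of DNA break repair. Nearest to CDK1 were DIXDC1, KIF4A and CDCA8, at 0.18, 0.20 and 0.28. KIF4A encodes a mitotic kinesin and CDCA8 a subunit of the chromosomal passenger complex, which corrects chromosome attachment. The 6 genes had changes of -0.945 to -1.57 and passed the test, which largely follows from their choice by likeness to called genes. All 6 lost the call against a minimum fold of 1.2 (adjusted p = 0.0652 to 0.128, limma). Without any 1 of the 4 arrays they lost it too, as did nearly all called genes of the whole table. DDX59 and DIXDC1 lost it also after quantile normalization (0.0539 and 0.0519), and MRE11 after median centring (0.0509) or with all features tested (0.0525). This likeness rests on 4 arrays and is a description.

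The regulatory partners of the CDKs and of their phosphatases were read from the same fit. Of 15 measured cyclins and CDK partners, 5 fell, 0 rose and 10 did not pass, with a median change of -0.485, where 2.02% of all genes fell and 1.66% rose. CCNB1 and CCNB2, the B-type cyclins of CDK1, changed by -1.38 (adjusted p = 0.0192) and -2.0 (adjusted p = 0.0120, limma). CCNA2, which serves CDK2 and CDK1, fell by 1.78 (adjusted p = 0.0168), and CKS1B, which encodes a small CDK-binding protein, by 1.21 (adjusted p = 0.0259, limma). CCND1, a cyclin of CDK4 and CDK6, changed by -1.995 (adjusted p = 0.0291, limma), from 9.43 and 9.76 to 6.98 and 8.22. The other D-type cyclin genes did not pass, CCND2 at -0.74 and CCND3 at 0.515. The E-type cyclin genes of CDK2 did not pass either, CCNE1 at 0.235 and CCNE2 at 1.265 (adjusted p = 0.0934, limma). CDK7, CCNH and MNAT1, which together encode the CDK-activating kinase, did not pass and had changes of -0.07, 0.19 and 0.415. The calls of CKS1B (0.0603) and CCND1 (0.0526) were lost against a minimum fold of 1.2. CKS1B and the members given as not passing were named after their values were seen.

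Of 23 measured controllers of CDC25 and WEE proteins, 2 fell, 0 rose and 21 did not pass (median -0.23), where 2.02% of all genes fell and 1.66% rose. In that list 6 had an unadjusted p under 0.05 in the limma fit, against 18.8% of all genes. PLK1, the kinase that activates CDC25C and marks WEE1 for destruction, measured 13.29 and 13.05 in DMSO and 11.22 and 11.27 in MK-8776. It fell by 1.925 (SE 0.21, adjusted p = 0.00477, limma). CDC20, an activator of the anaphase-promoting complex, had a change of -1.705 (adjusted p = 0.0120, limma). The 14-3-3 genes, whose proteins hold phosphorylated CDC25 in the cytoplasm, gave 0 calls of 7 in the limma fit, with 1 at an unadjusted p under 0.05, against 3.69% and 18.8% of all genes. YWHAZ and YWHAB had the largest changes, 0.655 and 0.59, and the median was 0.25.

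Of 23 E2F, RB and MuvB regulators, the factors that switch cell cycle genes, 2 fell, 1 rose and 20 did not pass (median -0.10). In that list 7 had an unadjusted p under 0.05 in the limma fit. Of all genes, 2.02% fell, 1.66% rose and 18.8% had an unadjusted p under 0.05. E2F5 fell by 1.195 (adjusted p = 0.0400, limma), a call that quantile normalization (0.0556) and a minimum fold of 1.2 (0.0958) ended. LIN9, a core subunit of MuvB, fell by 1.07 (adjusted p = 0.0332), and E2F3 rose by 1.085 (adjusted p = 0.0324, limma), and both calls were lost against a minimum fold of 1.2 (0.0877 and 0.0848). FOXM1 and MYBL2, activators of late cell cycle genes, did not pass, at -0.69 and -0.185, and were named after their values were seen. Of 7 CDK inhibitor genes, CDKN1A, which encodes p21, rose by 1.79 (adjusted p = 0.0164) and CDKN3, which encodes a phosphatase that acts on CDKs, fell by 1.67 (adjusted p = 0.00785, limma), with a list median of -0.11. CDKN1A was low in the controls, at 4.46 and 4.85, under the median of all values (5.77), and measured 6.09 and 6.80 in MK-8776. The 14 other CDK genes gave 0 calls in the limma fit, with 3 at an unadjusted p under 0.05, a share near the 18.8% of all genes. CDK14 had a change of -0.72 and CDK11B, which has a near-identical copy, one of 0.665, with a list median of -0.0375. Of the 12 calls in these lists, 5 were lost against the minimum fold, and each was lost without any 1 of the 4 arrays, settings in which the whole table gave 0 to 34 calls in place of 652.

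**Figure D4:**
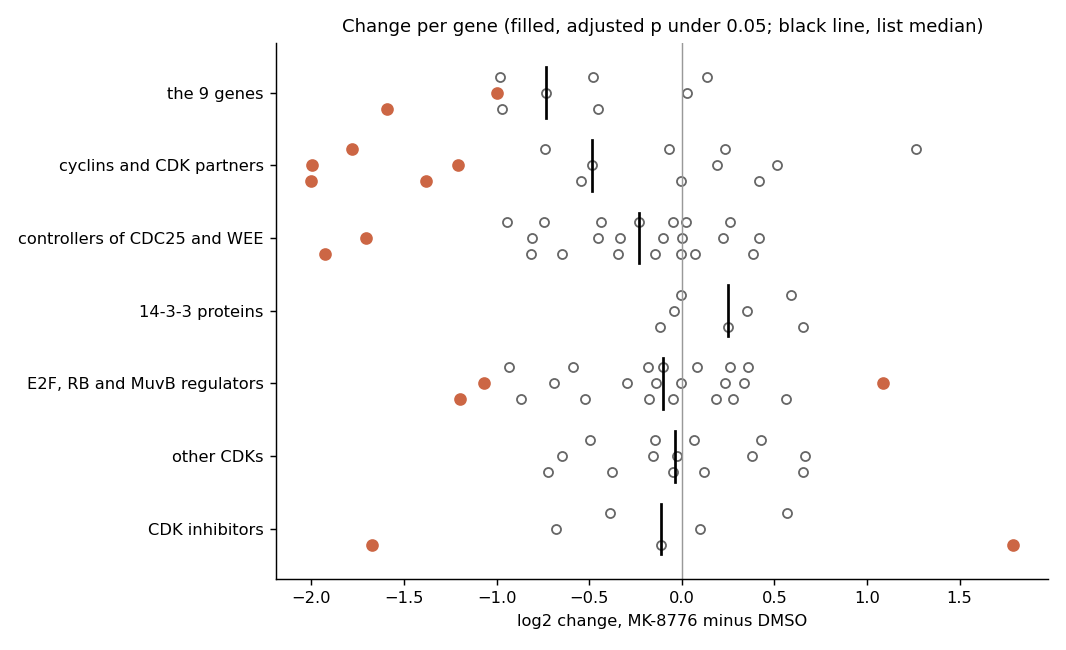
Each point is the log2 change, MK-8776 minus DMSO, of 1 gene of the list named at the left (2 arrays per group), filled where the adjusted p from limma was under 0.05, with the list median as a black line. Points are spread vertically for sight only. Filled points lie at -1.07 or lower in the cyclin, controller and regulator lists apart from E2F3 at 1.085, and the other CDK genes and the 14-3-3 genes have none.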

How the data were processed

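Total RNA of 4 samples was measured on Affymetrix arrays. The deposited values are log2 expression per feature, made by the authors with RMA, per the submitters' processing notes, with genome build hg38. Its version and settings are not given in the sources used. The range of 2.16 to 18.54 was read as a log2 scale, and a variant of RMA with another scale would alter the size of the changes. Since RMA equalises the distributions, changes are relative to the other genes. The number of arrays limits the precision.

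Of 21448 features, 17709 had 1 gene symbol, 0 had several and 3739 had none. All gene numbers matched RefSeq (GRCh38.p14), the source of coordinates and promoter windows. For 20 genes with over 1 feature the highest mean was taken, which left 17687 genes. None of the 9 members was among the 20, and no filter on low values was set, so all 9 were tested.

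MK-8776 was compared with DMSO by limma 3.58.1 in R 4.3.3 (lmFit, eBayes, two-sided, Benjamini-Hochberg over 17687 genes, threshold 0.05), with 2 residual and 6.30 borrowed degrees of freedom. With 2 arrays against 2, the smallest p of an exact permutation test is 0.333 (two-sided). The fit was tested on simulated data. That check required the right sign, and recovery only of changes larger than those of the 9 members. Recovery at the size of their changes is not given here. Named were the 9 members, up to 4 called genes per pathway list with the largest change (2 where none passed), and the 3 nearest genes of each called member. Genes of the marker lists were not named by this rule. Members and lists were chosen with earlier results of these data known. The alternatives were other normalizations, a level filter, variance trends, a replicate block, other feature sets, a minimum fold and leaving out each array.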

Additional observations from a re-analysis of the deposited data

How the results depend on the processing

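Of the 9 genes, 2 passed in the reported fit, and 2 after median centring, with all features tested or with the mean of a gene's features. The count was 3 among genes above the median level and with a variance trend, plain or robust, where CDC25B joined. It was 1 after quantile normalization, where CDC25C was lost. It was 0 against a minimum fold of 1.2 (4 at an unadjusted p under 0.05) and 0 without each array in turn (3 to 5). Over all genes the count of 652 became 1185 with a variance trend, 1162 when that was robust, 288 against a fold of 1.2, and 0 to 34 when arrays were left out (0 lacking either DMSO array, 7 lacking the first MK-8776 array, 34 lacking the second, with 1815 to 3017 at an unadjusted p under 0.05, limma). Both groups use the replicate numbers 1 and 2, which are tied to no shared day or culture by the labels, so they were not taken to pair the samples. The deviations of same-numbered arrays correlated at 0.14 across genes. With a replicate block 0 of the 9 genes and 309 of all genes passed (6 and 3543 at an unadjusted p under 0.05, with CDK1 at adjusted p = 0.0968 and CDC25C at 0.0723, limma). That block also ended 4 of the 12 calls in the pathway lists (CKS1B 0.0526, E2F3 0.0635, E2F5 0.0954, LIN9 0.0677), 4 of the 7 marker calls, ANPEP (0.0689) among them, and those of the 6 genes nearest to CDC25C and CDK1 (0.0741 to 0.0845). Without each array the change of CDC25A ran from -0.955 to 0.045, of CDK4 from -0.085 to 0.145 and of PKMYT1 from -0.05 to 0.32. That of CDC25A minus WEE1 ran from -0.51 to 0.56, of CDC25A minus PKMYT1 from -1.275 to 0.095 and of CDK2 minus CDK6 from -0.48 to 0.97. The other members and pairs kept their sign under the alternatives run. With 1 array left out the lone array of a group was assumed to vary like the others, with 1 residual degree of freedom. PKMYT1 and CDC25A could not be tested among genes above the median level, since both lay below it.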
